A study of Homo sapiens with 12 samples.

Results

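Contactins, the L1 family and the NCAM group are immunoglobulin-superfamily adhesion molecules, and 10 of their genes were followed among the 28278 gene symbols of the count table: CNTN1, CNTN2 and CNTN4 (contactins), L1CAM, CHL1, NRCAM and NFASC (L1 family), NCAM1 and NCAM2, and ALCAM. The genes were chosen by name and function, with earlier results of these data known. The RNA-seq libraries came from motor neuron cultures made from human embryonic stem cells, the line WA09-Islet1-GFP, which is labelled wild-type, carries a GFP reporter of ISL1 and is the only line sequenced here. All cultures were differentiated in the same way and received either cis-chlordane, an organochlorine pesticide, or the DMSO vehicle for 16 hours. Cells were then sorted by FACS, which gave 4 groups of 3 libraries: control GFP-positive, treated GFP-positive, control GFP-negative and treated GFP-negative. The sample labels give a dose of 10 µM, while the methods of the study name a higher one, so the dose is reported here as labelled. Labels of treated samples also begin with the word untreated, and treatment was read from their treatment entry. Per the methods of the study, replicates came from independent thaws.

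These proteins sit on the surface of axons and hold them to one another, to glia and to the matrix. Contactins are anchored in the membrane by a lipid and signal through partners in the same membrane. L1CAM, CHL1, NRCAM and NFASC cross the membrane and bind ankyrins inside the cell, which tie them to spectrin. NCAM1 carries polysialic acid in young neurons, a sugar chain that weakens adhesion and lets axons move. ALCAM binds itself and CD6, and has long been used as a surface marker of motor neurons in the embryo. In the developing spinal cord, CNTN2 (TAG-1) marks commissural and motor axons as they grow out.

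Libraries held between 23414935 and 38347050 counts, and values are given as CPM (counts scaled to a common library size) after TMM scaling over the 12 libraries. ISL1, the gene the reporter is named for, averaged 65.7 ± 3.13 CPM among the control GFP-positive libraries and 2.57 ± 0.204 CPM among the control GFP-negative ones (SD, n = 3), as the sort labels say. It was at 12.0 ± 3.71 CPM in treated GFP-positive cells. The summed level of 6 motor neuron markers ranged from 1711 to 1913 CPM in control GFP-positive libraries and from 506 to 697 CPM in treated ones, and from 291 to 336 CPM and from 101 to 135 CPM in the corresponding GFP-negative libraries. None of the 6 was at the floor of 3 counts in any group. In bulk RNA, fewer cells of a type and less RNA per cell cannot be told apart, and the part of these shifts in the results below was not tested.

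**Figure D1:**
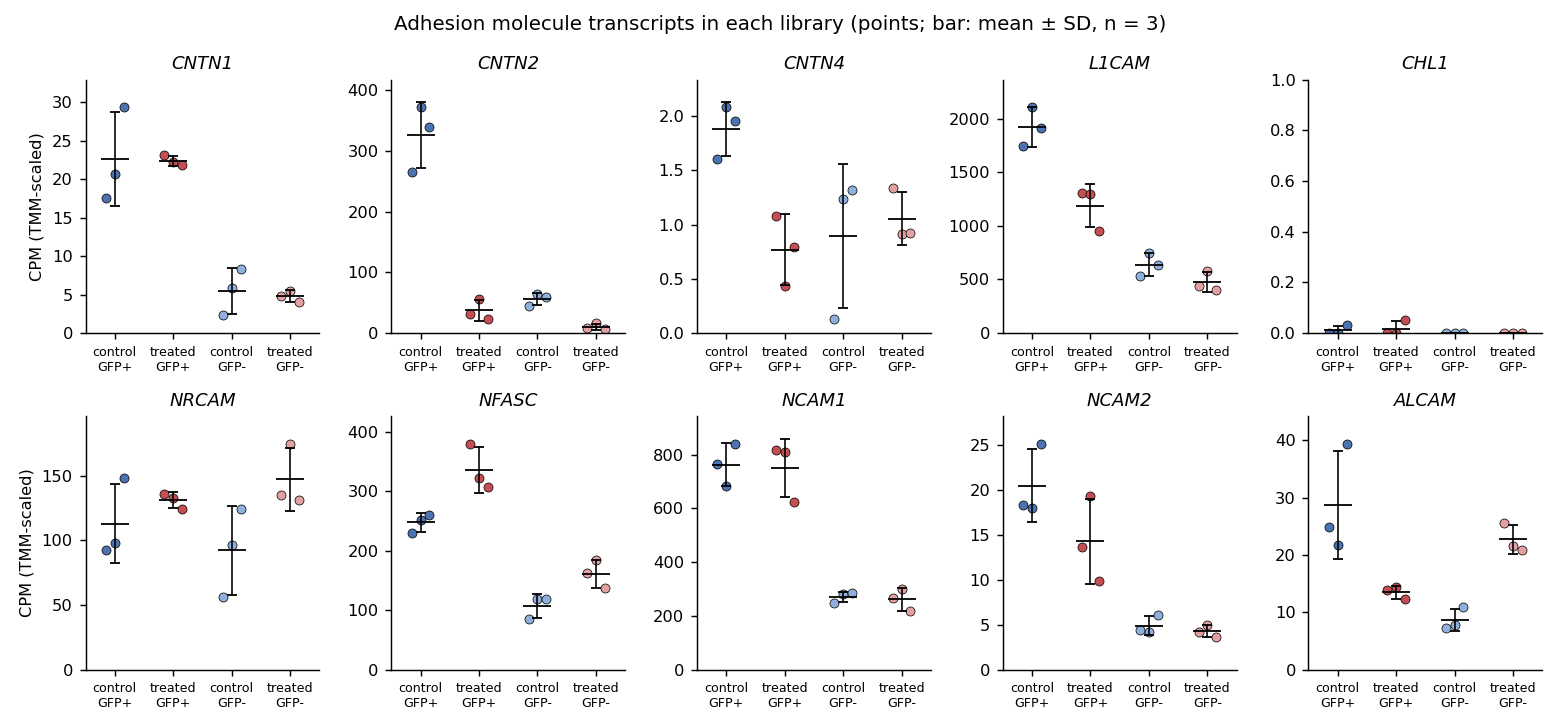
Level of each of the 10 adhesion genes in CPM (vertical axes, linear and different for each gene) in the 12 libraries, grouped by treatment and sort fraction; points are libraries and the bars mark the mean ± SD of 3 libraries. CNTN2 fell in both fractions, ALCAM moved in opposite directions in the 2 fractions, and CHL1 was close to 0 throughout.

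L1CAM and NCAM1 made up most of the adhesion transcripts in all 4 groups. Levels of different genes were compared per kilobase of merged exons (GENCODE release 44). In control GFP-positive cells L1CAM stood at 264 ± 25.2 CPM per kb (SD, n = 3) and NCAM1 at 60.1 ± 6.29 CPM per kb, with no overlap between their libraries. CNTN2, NRCAM and NFASC followed at 18.4 ± 3.09, 14.2 ± 3.84 and 11.6 ± 0.751 CPM per kb. NRCAM overlapped both of the others, while CNTN2 and NFASC did not overlap. ALCAM, CNTN1 and NCAM2 lay between 2.47 and 3.99 CPM per kb on average, each overlapping its neighbour in this order. CNTN4 was far lower at 0.206 ± 0.0273 CPM per kb. CHL1, the close homolog of L1CAM, had at most 1 count in any control GFP-positive library, at most 2 in any treated GFP-positive library and 0 counts in the 6 GFP-negative libraries. It did not pass the filter on low counts, and the other 9 genes did in each comparison. CNTN4 and NCAM1 overlap antisense genes that are also in the table, and the strand setting of the counting is not given in the sources used here, so reads of the partners may not be fully separated.

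The order changed under treatment. CNTN2 moved from the third place in control GFP-positive cells to the sixth in treated ones, at 2.10 ± 0.992 CPM per kb, where it overlapped CNTN1 and ALCAM. ALCAM, which overlapped CNTN1 in control cells, lay below it without overlap in treated ones. Of the summed CPM per kb of the 10 genes, L1CAM held 69.8% in control and 61.8% in treated GFP-positive cells, and 66.8% and 55.7% in GFP-negative cells. NRCAM held 8.66% in control and 15.8% in treated GFP-negative cells, and in the latter its libraries overlapped those of NCAM1. ALCAM held 0.922% and 2.76% in the same groups. The sum itself was 378 ± 28.2 CPM per kb in control and 263 ± 39.7 in treated GFP-positive cells (SD, n = 3), without overlap between the groups. In GFP-negative cells it was 131 ± 20.6 and 117 ± 20.5 CPM per kb, with overlap. These shares and the order of genes are descriptions without a test and depend on the gene length used. With the longest transcript as length, L1CAM held 62.3%, 54.1%, 60.4% and 50.5% in the order control and treated GFP-positive, control and treated GFP-negative. By that length NRCAM held 12.1% and NCAM1 24.7% in treated GFP-negative cells, without overlap. CNTN2 held 1.08% in treated GFP-positive cells and stood above CNTN1 at 0.943%, with overlap. NFASC held 3.99% in control GFP-positive cells and stood above NRCAM at 2.80%, without overlap.

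**Figure D2:**
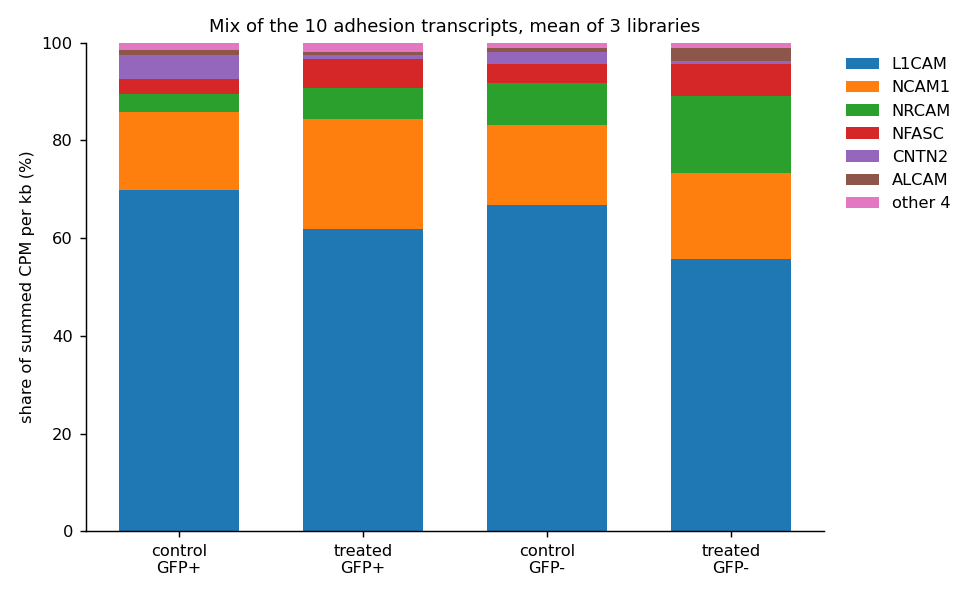
Share of each adhesion gene in the summed CPM per kb of the 10 genes (vertical axis, percent; bars start at 0), as the mean of 3 libraries in each of the 4 groups; CHL1, CNTN1, CNTN4 and NCAM2 are drawn together as the other 4. The L1CAM share was lower in treated cells of both fractions, at 61.8% and 55.7%.

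To ask how motor neurons responded to cis-chlordane, treated GFP-positive cells were compared with control GFP-positive cells. CNTN2, the axonal contactin, fell to 0.120 of its control level, the largest change among the 9 genes tested, and ALCAM and CNTN4 fell to 0.493 and 0.428 of theirs. L1CAM fell less and NFASC rose, both by under 2-fold. NCAM1 and CNTN1 did not pass the test. Differentially expressed genes (DEGs) had an adjusted p under 0.05 (edgeR quasi-likelihood F-test, Benjamini-Hochberg over all 15333 genes tested) and a fold change of at least 2. By this rule 3 of the 9 adhesion genes were lower and 0 were higher, where 11.2% of all genes tested were lower and 12.8% were higher. Without the fold limit, 5 passed, 4 lower and 1 higher, while 50.9% of all genes tested did, 24.4% lower and 26.5% higher. Their median log2 fold change was -0.45, and that of all genes was 0.03. In 5 of the 9 genes the libraries of the groups did not overlap, as in 57.5% of all genes tested. The share of adhesion genes past the threshold for p, or without overlap, was thus near that of all genes.

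CNTN2 was at 266, 373 and 340 CPM in control GFP-positive libraries and at 32.0, 56.8 and 22.9 CPM in treated ones. The highest treated library was far below the lowest control one. The log2 fold change was -3.06 (SE 0.22, edgeR adjusted p = 9.7e-14), and between -3.52 and -2.81 with any 1 library left out. CNTN2 is anchored to the outer face of the axon membrane and binds L1CAM, NRCAM and NCAM1 there.

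CNTN4, a contactin that binds amyloid precursor proteins, was low, at 1.60, 2.09 and 1.95 CPM in control and 1.08, 0.43 and 0.79 CPM in treated libraries. The groups did not overlap, and the log2 fold change was -1.23 (SE 0.38, edgeR adjusted p = 0.0075). The call rested on few reads, between 15 and 72 counts per library, and was lost without treated replicate 2 (-0.95, edgeR adjusted p = 0.051) and in a fit of all 12 libraries (edgeR adjusted p = 0.076). CNTN1, which forms the paranodal complex with its CASPR partner on myelinated axons, was at 17.6, 20.7 and 29.4 CPM in control and 23.1, 22.3 and 21.9 CPM in treated libraries. Its log2 fold change was 0.06, with a 95% interval from -0.34 to 0.46 (edgeR adjusted p = 0.82).

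L1CAM was at 1744, 2110 and 1911 CPM in control and 1307, 1301 and 953 CPM in treated GFP-positive libraries. All treated libraries were lower, with a log2 fold change of -0.63 (SE 0.16, edgeR adjusted p = 0.0015). After the trend of counts with GC content was removed, the change was -0.32 (edgeR adjusted p = 0.054). NFASC, whose isoforms gather sodium channels at nodes and initial segments, was at 230, 252 and 261 CPM in control and 380, 323 and 307 CPM in treated libraries. All treated libraries were higher, with a log2 fold change of 0.51 (SE 0.16, edgeR adjusted p = 0.0066). Without treated replicate 1 it was 0.40 (edgeR adjusted p = 0.077). NRCAM, the nodal relative of NFASC, was at 92.9, 97.9 and 148 CPM in control and 136, 133 and 125 CPM in treated libraries, which overlapped (log2 fold change 0.28, edgeR adjusted p = 0.16). Control replicate 3 stood above all treated libraries, and without it the change was 0.52 (edgeR adjusted p = 0.015).

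NCAM1 was at 767, 682 and 841 CPM in control and 819, 808 and 625 CPM in treated GFP-positive libraries. The groups overlapped, and the log2 fold change was 0.04, with a 95% interval from -0.28 to 0.37 (edgeR adjusted p = 0.84). NCAM2, its paralog without polysialic acid, was at 18.3, 18.0 and 25.2 CPM in control and 13.7, 19.3 and 9.91 CPM in treated libraries. Its log2 fold change of -0.45 missed the threshold (edgeR adjusted p = 0.079). It was -0.74 without treated replicate 2 (edgeR adjusted p = 0.0037) and -1.02 after removal of the GC trend (edgeR adjusted p = 0.0015).

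ALCAM was at 24.9, 21.8 and 39.4 CPM in control and 13.8, 14.4 and 12.3 CPM in treated GFP-positive libraries. Treated libraries were all lower, with a log2 fold change of -1.02 (SE 0.21, edgeR adjusted p = 9.8e-05), just past the fold limit. Control replicate 3 was the highest, and without it the change was -0.73, still past the threshold for p but under 2-fold. It was also under 2-fold without treated replicate 3 (-0.96), with scaling by library size alone (-0.92) and with a replicate block (-0.98).

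**Figure D3:**
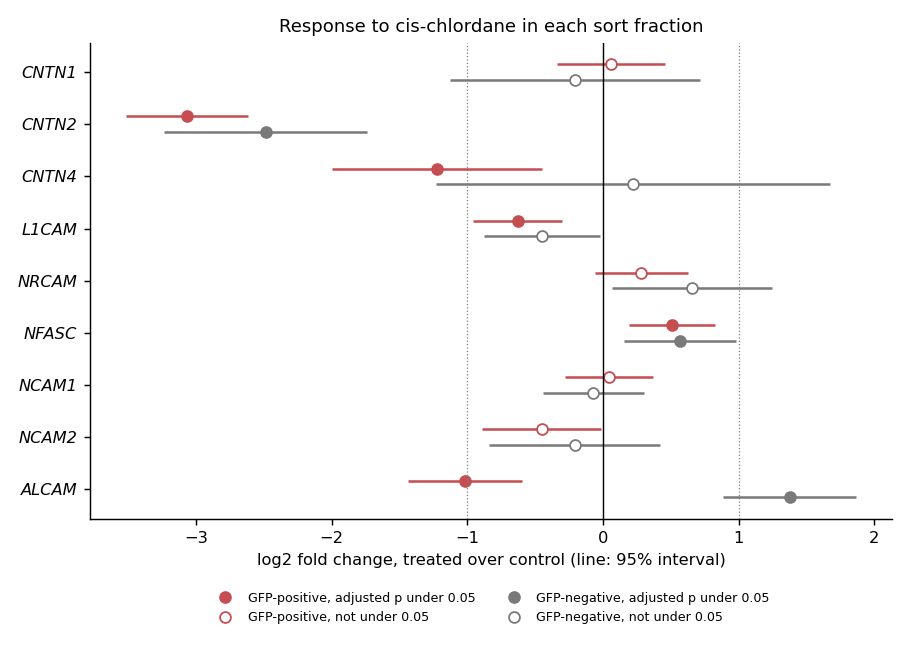
Log2 fold change of treated over control (horizontal axis) for the 9 adhesion genes tested, in GFP-positive cells (red) and GFP-negative cells (grey); lines are 95% intervals, filled points have an adjusted p under 0.05 and dotted lines mark a fold change of 2. CNTN2 lay at -3.06 and -2.49, and ALCAM at -1.02 in GFP-positive and 1.38 in GFP-negative cells.

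In GFP-negative cells, which hold the other cells of the culture, CNTN2 fell as well and ALCAM rose. Of the 9 genes tested, 1 was a DEG higher and 1 lower, where 8.59% and 9.75% of the 15513 genes tested were. The libraries of 4 genes did not overlap, as in 46.6% of all genes tested, and the median log2 fold change was -0.07 against -0.01 for all genes. CNTN2 was at 44.4, 63.8 and 59.5 CPM in control and 8.07, 15.9 and 6.30 CPM in treated libraries. The groups stood apart, with a log2 fold change of -2.49 (SE 0.33, edgeR adjusted p = 6.1e-04). ALCAM was at 7.26, 7.75 and 10.9 CPM in control and 25.6, 21.6 and 20.9 CPM in treated libraries, with every treated library higher. Its log2 fold change was 1.38 (SE 0.22, edgeR adjusted p = 0.0014), and between 1.26 and 1.57 with any 1 library left out.

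The L1 family in GFP-negative cells gave weaker results. NFASC was at 84.8, 118 and 118 CPM in control and 162, 184 and 138 CPM in treated libraries, without overlap (log2 fold change 0.57, SE 0.19, edgeR adjusted p = 0.041). That call was lost when control replicate 1, control replicate 2, treated replicate 1 or treated replicate 2 was left out, with values from 0.43 to 0.65, and also with scaling by library size alone (edgeR adjusted p = 0.099), without the filter on low counts (0.055) and with a replicate block (0.052). NRCAM was at 56.0, 96.9 and 124 CPM in control and 136, 175 and 131 CPM in treated libraries, also without overlap, but its change of 0.66 missed the threshold (edgeR adjusted p = 0.085). Without control replicate 3 it was 0.92 (edgeR adjusted p = 0.013). L1CAM had a log2 fold change of -0.45 (edgeR adjusted p = 0.10), and passed without control replicate 1 (-0.56, edgeR adjusted p = 0.049) or treated replicate 2 (-0.62, edgeR adjusted p = 0.046). CNTN1, CNTN4, NCAM1 and NCAM2 had log2 fold changes between -0.21 and 0.22, and none passed. For NCAM1 the 95% interval was from -0.44 to 0.30, and for CNTN4, with only 4 counts in control replicate 1, it was from -1.23 to 1.67.

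The response of ALCAM differed between the sort fractions. The interaction of treatment and sort fraction, fitted on all 12 libraries, was -2.48 on the log2 scale (SE 0.32, edgeR adjusted p = 9.0e-04), so that its change was lower in GFP-positive than in GFP-negative cells. It was past the threshold in 20 of 20 alternatives, with adjusted p-values up to 0.0097. Of the 9 genes, ALCAM alone passed in this fit, which has no block, while 2.19% of the 16226 genes tested did. In GFP-negative cells the summed level of 3 endothelial markers also ranged from 10.9 to 28.3 CPM in control and from 87.0 to 128 CPM in treated libraries. KDR carried that rise, from 9.42 ± 0.652 to 102 ± 21.7 CPM (SD, n = 3), while the defining markers CDH5 and PECAM1 were at 1.17 ± 0.667 and 0.618 ± 0.286 CPM in treated libraries. In 1 control GFP-negative library PECAM1 reached 18.3 CPM. The sum rose in GFP-positive cells too, where it ranged from 1.56 to 2.37 CPM in control and from 7.45 to 9.87 CPM in treated libraries. The markers went opposite ways there, with KDR at 2.76 and CDH5 at -2.69 on the log2 scale (edgeR adjusted p = 1.6e-10 and 7.4e-04). PECAM1 did not pass the filter on low counts in that comparison. The part of these shifts in the ALCAM result was not tested.

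For CNTN2 the interaction was -0.66 (SE 0.46, edgeR adjusted p = 0.50). Both sorts of a culture carry the same treatment and replicate number. With each such culture as a block in the fit, the same term was -0.66 with an edgeR adjusted p of 0.027. The block raised the calls over all genes from 355 to 1264. CNTN4 had the second largest interaction, -1.53, with a 95% interval from -3.23 to 0.17 (edgeR adjusted p = 0.36).

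CNTN2 and NFASC are neighbours on chromosome 1, both on the plus strand, with 20114 bases and 0 annotated genes between them, and they moved in opposite directions in both fractions. NFASC spans chr1:204828651-205022822 and CNTN2 chr1:205042937-205078289 (GRCh38, GENCODE release 44). ALCAM spans chr3:105366909-105576900. The most upstream promoter windows (for ALCAM the only one) of the 3 genes that moved in both fractions are shown because they carry the contrasting responses. Each runs from 250 bases before to 50 after an annotated start on the strand of the gene (RefSeq, GRCh38.p14), at chr1:205042699-205042998 for CNTN2, chr1:204828402-204828701 for NFASC and chr3:105366659-105366958 for ALCAM. Capitals mark the GC box GGGCGG on either strand.
CNTN2: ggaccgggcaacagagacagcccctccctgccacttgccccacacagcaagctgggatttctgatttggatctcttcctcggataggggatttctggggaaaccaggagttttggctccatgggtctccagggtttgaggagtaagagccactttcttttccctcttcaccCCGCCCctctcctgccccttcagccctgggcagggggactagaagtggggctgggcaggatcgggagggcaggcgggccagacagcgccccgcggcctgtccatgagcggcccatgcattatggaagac
NFASC: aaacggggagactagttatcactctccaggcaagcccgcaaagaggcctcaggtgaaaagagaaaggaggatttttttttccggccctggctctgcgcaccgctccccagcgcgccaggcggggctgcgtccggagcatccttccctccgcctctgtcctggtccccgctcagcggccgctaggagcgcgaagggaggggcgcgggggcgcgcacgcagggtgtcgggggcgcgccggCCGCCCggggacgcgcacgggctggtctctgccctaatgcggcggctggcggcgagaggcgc
ALCAM: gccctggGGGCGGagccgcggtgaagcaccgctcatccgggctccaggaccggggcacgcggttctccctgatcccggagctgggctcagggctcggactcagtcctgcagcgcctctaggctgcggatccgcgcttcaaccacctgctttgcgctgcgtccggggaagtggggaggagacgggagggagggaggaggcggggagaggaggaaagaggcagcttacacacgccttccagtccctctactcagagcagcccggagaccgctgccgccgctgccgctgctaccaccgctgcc
Each window held 1 GC box, which 45.0% of the 35116 windows in the table held. It began 79 bases before the annotated start in CNTN2 and 12 before it in NFASC, on the minus strand in both, and 243 before it in ALCAM on the plus strand. The stress-related elements TGACGTCA (1.85% of all windows), TGATGNAA (3.62%) and TGACGTGG (0.729%) were not found in these 3 windows on either strand. Nor were CCAAT (34.6%), the ER stress response element (ERSE) that begins with it (0.0769%), TATAAA (11.5%) or TAATTA (4.84%). The same search found TGACGTCA in the most downstream of the 3 windows of NRCAM. Promoters were matched for 9 of the 10 genes, with 18 windows in all.

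GFP-positive and GFP-negative cells were then compared to ask which adhesion genes mark the Islet1 fraction. In control cultures 7 of 9 genes were higher in GFP-positive cells and 0 were lower, where 7.47% of the 15404 genes tested were higher and 15.3% lower. Their median log2 fold change was 1.49 against -0.02 for all genes, and the libraries of 8 genes did not overlap, as in 52.4% of all genes. Neuron markers moved the same way, with 5 of 7 higher and a summed level from 17905 to 19478 CPM in GFP-positive and from 7606 to 8313 CPM in GFP-negative libraries. The part of this difference in neuron content was not tested. All 4 markers of cycling cells were lower in the GFP-positive fraction.

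CNTN2 had the largest difference, with a log2 fold change of 2.44 (SE 0.19, edgeR adjusted p = 8.4e-06), and its lowest GFP-positive library of 266 CPM was above the highest GFP-negative one of 63.8 CPM. NCAM2 and CNTN1 followed at 1.95 and 1.93, then ALCAM at 1.62, L1CAM at 1.49, NCAM1 at 1.39 and NFASC at 1.10, with edgeR adjusted p-values between 5.8e-05 and 0.0038. NFASC was under 2-fold without control GFP-negative replicate 1 (0.95). CNTN4 did not overlap between the groups but missed the threshold at 0.97 (edgeR adjusted p = 0.23), and it passed at 1.31 with the replicate block and the GC trend removed together (edgeR adjusted p = 0.041). NRCAM missed the threshold, at 113 ± 30.6 CPM in GFP-positive and 92.3 ± 34.2 CPM in GFP-negative libraries (SD, n = 3), and the 95% interval of its log2 fold change was from -0.45 to 0.82.

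In treated cultures 6 of the 9 genes were higher in GFP-positive cells and 0 were lower by the same rule, where 10.0% of the 15416 genes tested were higher and 13.7% lower. The libraries of 7 genes did not overlap, as in 58.0% of all genes tested, and the median was 1.34 against 0.05. CNTN1 differed most, at 2.24 (SE 0.20, edgeR adjusted p = 2.3e-06), followed by CNTN2 at 1.89, NCAM2 at 1.75, NCAM1 at 1.54, L1CAM at 1.34 and NFASC at 1.08. NFASC was at 0.97 without treated GFP-positive replicate 1. ALCAM was on the other side, lower in GFP-positive cells at -0.73 (SE 0.18, edgeR adjusted p = 0.0043), under 2-fold. NRCAM and CNTN4 missed the threshold at -0.15 and -0.43. These comparisons share their libraries with the treatment comparisons above and are not independent of them.

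**Figure D4:**
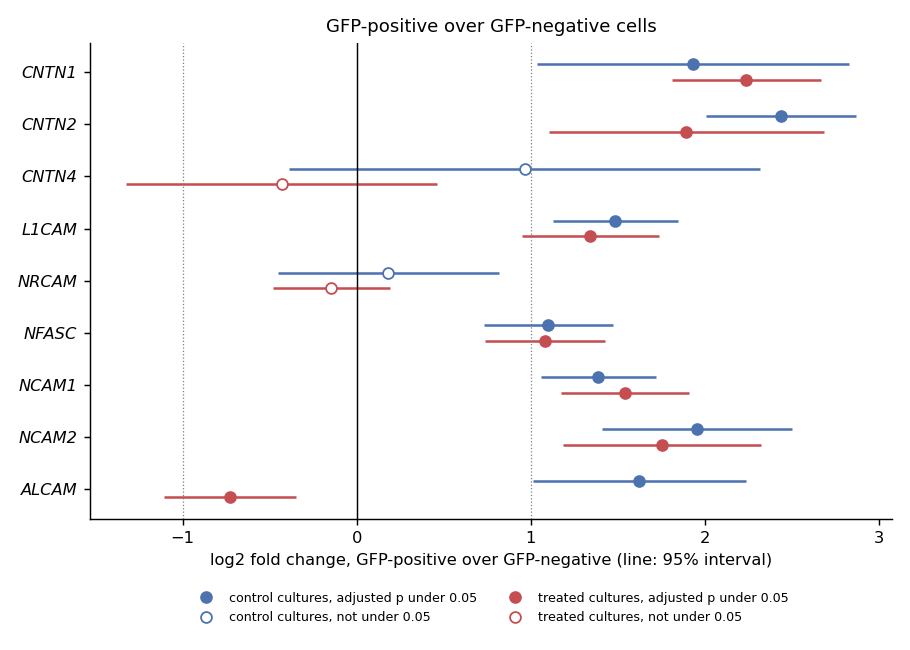
Log2 fold change of GFP-positive over GFP-negative cells (horizontal axis) for the 9 adhesion genes tested, in control cultures (blue) and treated cultures (red); lines are 95% intervals, filled points have an adjusted p under 0.05 and dotted lines mark a fold change of 2. ALCAM lay at 1.62 in control and -0.73 in treated cultures, while NRCAM had intervals across 0 in both.

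Of 5 enzymes that modify these proteins, 4 passed the threshold for p in GFP-positive cells, where 50.9% of all genes tested did. BACE1, named after its value was seen, did not pass (log2 fold change -0.29, edgeR adjusted p = 0.13). ST8SIA2, the polysialyltransferase that acts on NCAM1 in young neurons, was at 160 ± 3.30 CPM in control and 56.1 ± 1.16 CPM in treated GFP-positive cells (SD, n = 3; log2 fold change -1.45, edgeR adjusted p = 1.9e-09). It fell in GFP-negative cells too, from 73.0 ± 7.72 to 25.3 ± 4.06 CPM (-1.55, edgeR adjusted p = 2.9e-04). ST8SIA4, the other polysialyltransferase, fell from 17.7 ± 1.64 to 5.69 ± 0.402 CPM in GFP-positive cells (-1.57, edgeR adjusted p = 7.9e-08). In GFP-negative cells ST8SIA4 had a log2 fold change of -0.50 (edgeR adjusted p = 0.29). ADAM17, a protease that sheds L1CAM and other adhesion molecules, rose in both fractions, by 1.48 and 1.21 on the log2 scale (edgeR adjusted p = 2.5e-07 and 9.7e-04). ADAM10, a related sheddase, rose by 0.70 in GFP-positive cells (edgeR adjusted p = 8.0e-04). By the DEG rule, 1 of the 5 enzymes was higher and 2 were lower in GFP-positive cells, where 12.8% and 11.2% of all genes were, with a median of -0.29.

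Of 11 cytoplasmic partners tested, 2 were DEGs lower and 0 higher in GFP-positive cells, where 11.2% and 12.8% of all genes were, with a median of -0.25. ANK3, the ankyrin G that holds NFASC and NRCAM at the initial segment, fell by 1.20 on the log2 scale (edgeR adjusted p = 5.6e-07). ANK1 fell by 0.62 and EZR, which links membrane proteins to actin, rose by 0.80, both under 2-fold. RDX, a relative of EZR named after its value was seen, rose by 0.58 (edgeR adjusted p = 0.0058). In GFP-negative cells 3 of the 11 were DEGs lower and 0 higher, where 9.75% and 8.59% of all genes were. ANK1 was among those lower there, at -1.33 (edgeR adjusted p = 0.0030), while EZR was at 0.01 (edgeR adjusted p = 0.97). ANK3 was among those lower there as well, at -1.18 (edgeR adjusted p = 0.044), though its libraries overlapped. The interaction for ANK3 was -0.11 (edgeR adjusted p = 0.94).

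Of 13 extracellular ligands and co-receptors tested in GFP-positive cells, 2 were DEGs higher and 5 lower, where 12.8% and 11.2% of all genes were, with a median of -0.64. In GFP-negative cells 2 were higher and 4 lower, where 8.59% and 9.75% of all genes were. TNC, the matrix protein tenascin-C that binds CNTN1, was at 19.8 ± 0.556 CPM in control and 76.2 ± 10.8 CPM in treated GFP-positive cells. In GFP-negative cells it was at 19.0 ± 1.78 and 342 ± 32.8 CPM (SD, n = 3), and its response was larger there (interaction -2.22, edgeR adjusted p = 4.8e-05). PRNP, the prion protein and a partner of NCAM1, rose by 2.32 and 1.96 on the log2 scale in the GFP-positive and GFP-negative fractions. NCAN, the proteoglycan neurocan that binds L1CAM and NCAM1, fell by 2.06 and 1.79. APLP1, a relative of the amyloid precursor protein, fell by 1.04 in GFP-positive cells. In GFP-negative cells it was lower too, at -0.61 (edgeR adjusted p = 0.021).

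Of the 9 relatives listed, 8 were tested in GFP-positive cells, with 2 DEGs higher and 3 lower, where 12.8% and 11.2% of all genes were, and a median of -0.54. CNTN3, a contactin outside the 10 genes, was at 0.278 ± 0.214 CPM in control and 2.99 ± 0.439 CPM in treated GFP-positive cells (SD, n = 3). Its log2 fold change there was 3.43 (edgeR adjusted p = 5.7e-08), with between 1 and 14 counts in control libraries. CNTN3 rose in GFP-negative cells too, by 1.44 (edgeR adjusted p = 0.025), and its interaction missed the threshold (edgeR adjusted p = 0.19). MCAM, a close relative of ALCAM, rose by 1.34 in GFP-positive cells (edgeR adjusted p = 8.4e-08) and had a change of -0.09 in GFP-negative cells (interaction 1.34, edgeR adjusted p = 0.0077), an interaction of the opposite sign to that of ALCAM. CNTNAP4 fell by 1.77 in GFP-positive cells, and CNTNAP1, the CASPR partner of CNTN1, fell by 0.81.

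**Figure D5:**
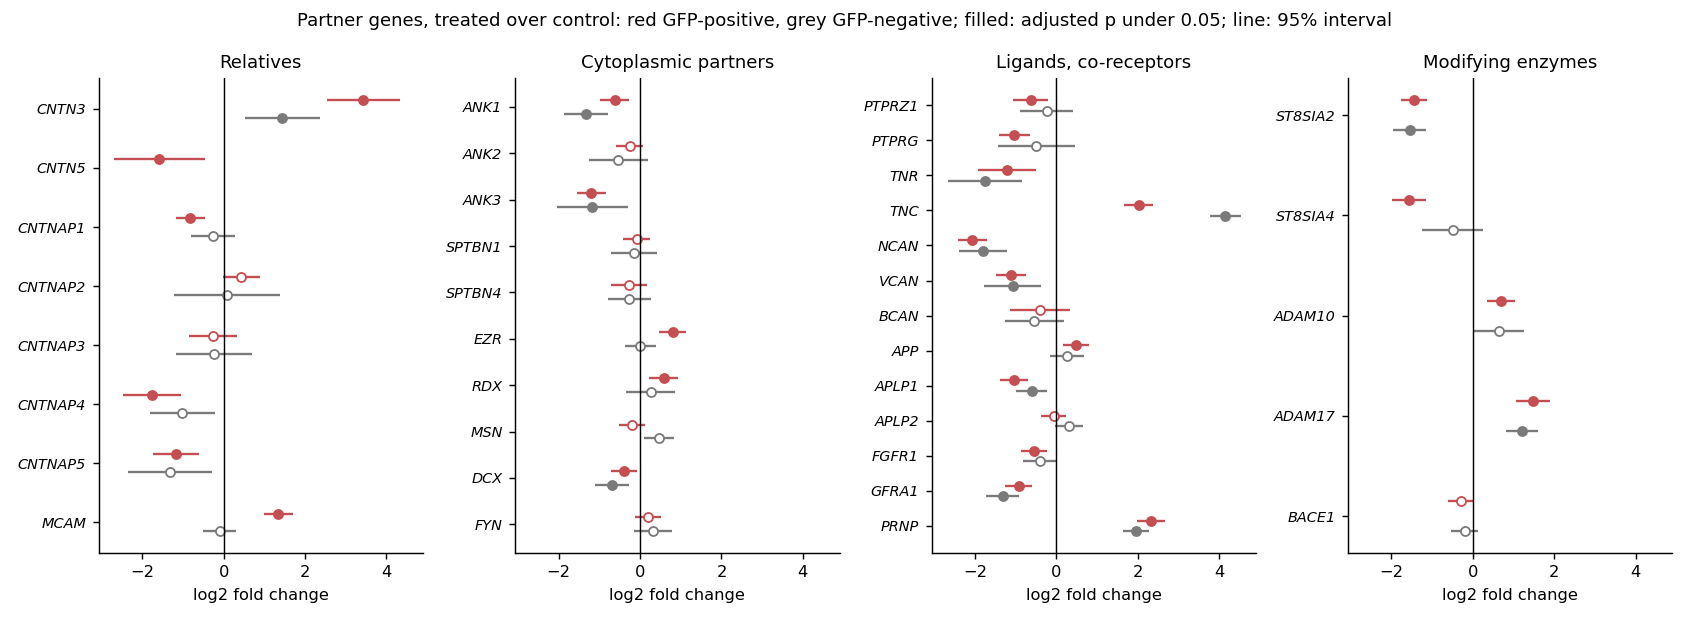
Log2 fold change of treated over control (horizontal axes) for tested genes of the 4 partner lists (1 gene that is not reported here is left out), in GFP-positive cells (red) and GFP-negative cells (grey); lines are 95% intervals and filled points have an adjusted p under 0.05. ST8SIA2 lay at -1.45 and -1.55 and TNC at 2.01 and 4.15 in the 2 fractions.

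Across the 12 libraries, levels of several of the 10 genes ran together on the log2 scale. NCAM1 and NCAM2 had a Pearson r of 0.97, L1CAM and NCAM2 of 0.95 and CNTN1 and NCAM1 of 0.95. CNTN2 and NRCAM had an r of -0.30. Among 13804 genes with a mean of at least 1 CPM, the genes most like CNTN2 were NRXN2 (r = 0.995) and ISLR2 (0.993), and those most like ALCAM were NRP1 (0.955) and TMTC1 (0.868). NFASC was most like DOCK3 (0.995), L1CAM like SMPD3 (0.992), NCAM1 like RALGPS1 (0.991) and CNTN1 like CLASP2 (0.993). NCAM2 was most like NKAIN3-IT1 (0.981), NRCAM like HACE1 (0.954) and CNTN4 like TMEM9B-AS1 (0.935). These values describe 12 libraries that fall into 4 groups, so they mostly reflect the group means.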

How the data were processed

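RNA-seq counts of 12 libraries, 3 in each of 4 groups, were analysed, with groups read from GEO's labels. The authors sequenced a stranded mRNA library, aligned it to the hg38 genome (HISAT2, Ensembl genes), and deposited raw counts per gene symbol. The processing notes also name featureCounts, and its settings and the tool versions are not given in the sources used here. Depth ran from 23414935 to 38347050 counts per library, and at this depth precision is limited for CNTN4 and CHL1. The floor of 3 counts covers counting error only.

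Tests used edgeR 4.0.16 in R 4.3.3: TMM scaling, filterByExpr with a minimum count of 10 and a minimum total of 15, and the quasi-likelihood F-test with p-values adjusted over all genes tested by Benjamini-Hochberg. Each comparison was fitted on its own 6 libraries, and the interaction on all 12, without a fold limit. SE was taken from the fold change and the F statistic. The script was tested on simulated data. With 3 libraries against 3, an exact permutation test cannot go below p = 0.1, so none is given. P-values set each fitted difference against the variation between these libraries, which is estimated with information from all genes tested.

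The 10 genes, the partner and marker lists and the tests were chosen with earlier results of these data known. Named genes are all 10, up to 4 genes per partner list with the smallest p in the GFP-positive treatment comparison, the genes most like each of the 10 by Pearson correlation, ISL1, and markers that moved with a result. Some genes that this rule picks are not reported here. MCAM, TNC and other partners outside the 10 are named by that rule. Replicate numbers were checked as pairs over 13368 genes. Deviations from the group means of the 2 sorts of a culture correlated at 0.16 to 0.48 in control and 0.20 to 0.55 in treated cultures. The GFP-positive library of treated replicate 1 did not correlate best with the GFP-negative library of its own number. The fits reported leave this pairing out, and fits with a block are given as alternatives. Alternatives were DESeq2 1.42.0, other scalings and filters, a fit of all libraries, glmTreat, the replicate block, removal of GC trends (loess span 0.5) and leaving out each library. For the interaction, the block was each culture, given by treatment and replicate number together. Lengths and positions came from GENCODE release 44 (GRCh38) and promoters from RefSeq (GRCh38.p14).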

Additional observations from a re-analysis of the deposited data

Results flagged for a closer look

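The response of ALCAM to cis-chlordane differed between the sort fractions by a test of the difference itself. The interaction of treatment and sort fraction was -2.48 on the log2 scale (SE 0.32, edgeR quasi-likelihood F-test, adjusted p = 9.0e-04), with a log2 fold change of -1.02 in GFP-positive and 1.38 in GFP-negative cells. All 3 treated libraries lay below all 3 control libraries in the first fraction and above them in the second.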

How the results depend on the processing

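Over all comparisons, 165 recomputed numbers of adhesion genes called higher or lower were within 1.5 times of the values reported and 3 were not. The 165 include numbers that were 0 in the fits reported and stayed 0, which adds little. The number lower in treated GFP-positive cells ran from 1 to 4. With glmTreat, whose null is a change of up to 2-fold, 1 gene was lower in treated GFP-positive cells in place of 3, and 0 were higher in treated GFP-negative cells in place of 1. With the replicate block, 2 genes passed for the interaction in place of 1, CNTN2 being the second, and no other count of called adhesion genes changed by over 1.5 times. The block changed the calls over all genes from 3675 to 3652 in the GFP-positive and from 2844 to 2694 in the GFP-negative treatment comparison, where correlations between same-numbered libraries ran from -0.08 to 0.25 and the samples share only a number, and not every library correlated best with its own number. It gave 3633 in place of 3506 between control sorts and 3749 in place of 3658 between treated sorts. Scaling by library size alone moved the median log2 fold change of all genes from 0.03 to 0.14 for treatment in GFP-positive cells. It moved the median from 0.05 to 0.22 between treated sorts and from -0.05 to 0.20 for the interaction. Most levels per kilobase moved by at least their SD when the longest transcript was used as length, so the order of genes depends on that choice.

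Signs turned only for genes that did not pass a test in the fits reported. In treated against control GFP-positive cells, CNTN1 was at -0.010 in the fit of all libraries, -0.38 without the GC trend and -0.37 with the block as well. NCAM1 was at -0.024, -0.025 and -0.031 in the same fits, and NRCAM at -0.037 without the GC trend and -0.023 with the block as well. NRCAM between treated sorts was at 0.017 with library size alone. For the interaction, NFASC was at 0.12 with library size alone and 0.013 with at least 10 counts in every library, and CNTN1 was at -0.0054 without the GC trend and -0.060 with the block as well. The cause was not tested. With 1 library left out, treatment in GFP-positive cells gave -0.092 to 0.28 for CNTN1 and -0.038 to 0.16 for NCAM1. In GFP-negative cells it gave -0.29 to 0.58 for CNTN4, -0.57 to 0.21 for CNTN1 and -0.18 to 0.036 for NCAM1. NRCAM ran from -0.083 to 0.48 between control sorts and from -0.24 to 0.013 between treated sorts. The interaction ran from -0.067 to 0.30 for NCAM1, -0.40 to 0.028 for L1CAM, -0.61 to 0.035 for NCAM2, -0.23 to 0.076 for NFASC and -0.24 to 0.57 for CNTN1.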
